A study of Mus musculus with 12 samples.

Results

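Short cassette exons are internal exons of at most 60 nucleotides that can be spliced in or skipped as a unit. In the deposited table of splicing events of murine G1E-ER4 erythroblasts, every exon skipping event with a variable part of 60 nucleotides or less and a single chromosomal position was taken, which gave 801 of 19323 events. These 801 events covered 726 distinct exons and 652 gene names, and 62 exons occurred in more than 1 event. Lengths ran from 3 to 60 nucleotides with a median of 46. G1E-ER4 cells are mouse proerythroblasts without functional GATA1 of their own, and estradiol activates a GATA1-ER fusion in them and with it erythroid maturation. The groups were Sf3b1 K700E/+ cells, edited with CRISPR-Cas9, and isogenic Sf3b1 +/+ cells, each with 3 libraries of poly(A) RNA taken after 24 h of estradiol. Each genotype was a single clone (5.13 for K700E/+ and 9.82 for +/+), so genotype and clone cannot be told apart, and the p-values measure only the spread between libraries of these clones. Nothing in the labels states that the libraries of a genotype came from separate cultures.

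SF3B1 is a subunit of the U2 small nuclear ribonucleoprotein and holds the branch point of the intron during the first steps of splicing. The K700E substitution changes which branch points are used and is known mainly for the use of cryptic acceptor sites that lie shortly upstream of the normal ones. A short exon is a special case for the spliceosome, because the factors bound at its acceptor and at its donor have little room to bind side by side. Exons of 27 nucleotides or less are called microexons, are mostly frame-keeping and are best known from neurons, where the splicing activator SRRM4 promotes their inclusion. Inclusion is given as PSI (percent spliced in), a fraction from 0 to 1 that is the share of the longer path after each path's reads are divided by the length of its assembled sequence. The PSI difference is the mean of the K700E/+ libraries minus the mean of the +/+ libraries.

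The following exons are printed because they are short enough to be read whole, lie within coding sequence and differed between the genotypes. The exon is in capitals and 15 bases of each neighbouring exon are in lower case, from GENCODE M21 transcripts (GRCm38) matched to the events by gene, exon length and the lengths of both introns. The exons of the first 5 genes were included less in K700E/+ cells and those of the other genes more.
Nme4: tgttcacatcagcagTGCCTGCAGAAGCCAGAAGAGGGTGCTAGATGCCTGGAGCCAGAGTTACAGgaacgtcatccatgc
Arap1: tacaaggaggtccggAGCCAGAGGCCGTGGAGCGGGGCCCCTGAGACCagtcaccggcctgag
Incenp: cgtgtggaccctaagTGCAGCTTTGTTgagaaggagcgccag
Acly: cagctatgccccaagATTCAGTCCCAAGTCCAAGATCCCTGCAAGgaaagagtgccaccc
Myo18a: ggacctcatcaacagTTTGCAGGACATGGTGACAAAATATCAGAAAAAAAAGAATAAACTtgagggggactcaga
Mast3: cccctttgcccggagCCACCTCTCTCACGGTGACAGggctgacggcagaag
Mink1: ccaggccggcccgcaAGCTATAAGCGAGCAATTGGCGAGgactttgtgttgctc
Ank2: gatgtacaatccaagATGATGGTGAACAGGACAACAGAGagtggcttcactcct
Pikfyve: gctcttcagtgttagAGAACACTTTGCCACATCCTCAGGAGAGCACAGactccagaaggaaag
Uckl1: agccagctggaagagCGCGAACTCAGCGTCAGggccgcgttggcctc
Immt: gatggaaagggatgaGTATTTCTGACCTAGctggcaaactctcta
Mbnl1: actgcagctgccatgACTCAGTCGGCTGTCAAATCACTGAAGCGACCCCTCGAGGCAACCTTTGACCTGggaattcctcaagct

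In all 6 libraries the gene counts summed to between 38785471 and 50077827, and 167470 to 226686 reads per library fell on short cassette exon events. The K700E/+ libraries were the deeper ones, with a median of 87.5 to 109 reads per tested short exon event against 80 to 88 in +/+. Sf3b1 itself, whose coding change is not visible in a gene count, had a log2 fold change of 0.01 (SE 0.05). Erythroid markers summed to 8978 to 14806 CPM, a gene count scaled to library size, in K700E/+ and 10889 to 15295 in +/+, and 2 of 12 tested rose and 2 fell, where 21.3% of all tested genes rose and 23.1% fell. Gata1, the gene of the induced factor, was at 315 to 323 CPM in K700E/+ and 149 to 175 CPM in +/+, and its part in the exon differences was not tested. Granulocyte and macrophage markers summed to 0.0467 to 0.0668 CPM in K700E/+ and 7.38 to 23.4 CPM in +/+, carried by Lyz2 and Cybb, with Elane, Ly6g and S100a8 at 0 in every library. Their part in the exon differences was not tested. Replicate 1 stood apart from replicates 2 and 3 in both genotypes.

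The shortest exons kept the reading frame most often. Of the 33 events of 3 to 15 nucleotides, 29 (87.9%) had a length that is a multiple of 3, and the share was 71.3% of 80 events at 16 to 27 nucleotides. It was 54.6% at 28 to 40, 46.0% at 41 to 50 and 51.5% at 51 to 60 nucleotides, beside 42.2% of the 4175 longer cassette exon events. The frame-keeping share of all short events was 54.3%. These shares describe the table and were not tested.

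Of the 801 events, 718 reached 10 reads in each of the 6 libraries, both paths together, and were tested, and 83 were too shallow. In +/+ cells 497 of the tested events had a mean PSI from 0.1 to 0.9, 106 were below and 115 above. The median +/+ PSI was 0.46, against 0.78 for the longer cassette exons, and for exons up to 27 nucleotides it was 0.32. No inclusion read lay wholly within one of these exons, and in exons up to 27 nucleotides the median share of inclusion reads that spanned both junctions was 53.7%. That share was 29.3% at 28 to 40, 15.5% at 41 to 50 and 7.36% at 51 to 60 nucleotides.

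**Figure D1:**
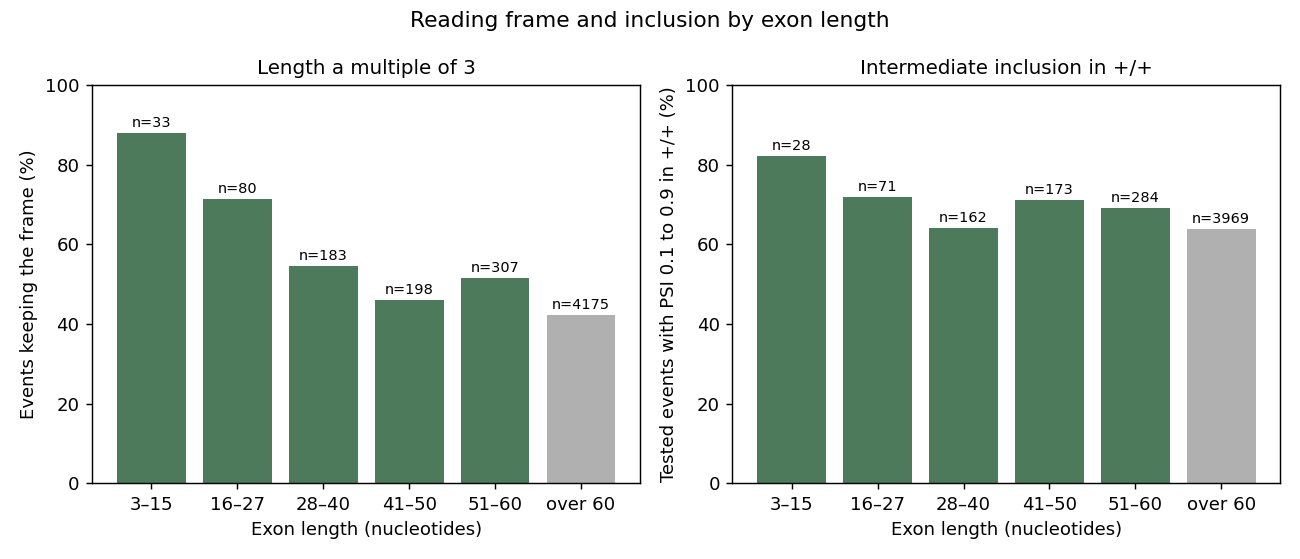
Left, percentage of events whose exon length is a multiple of 3. Right, percentage of tested events with a mean PSI from 0.1 to 0.9 in +/+ cells. Bars are length classes in nucleotides, grey marks cassette exons over 60 nucleotides, and n is the number of events. The frame-keeping share falls from 87.9% at 3 to 15 nucleotides to 46.0% at 41 to 50 nucleotides and is 42.2% for longer exons.

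Most annotated short exons lay in coding sequence. A GENCODE M21 transcript with the exon was found for 579 events and one that skips it for 637. The included exon was coding in 372 events, partly coding in 40, in a 5′ untranslated region in 75 and in a 3′ untranslated region in 6. In 86 events the matched transcript was non-coding or had an incomplete coding start. Where several transcripts matched, one with the exon inside its coding sequence was preferred. In the deposited annotation 662 events had both exon sites annotated, 47 had 1 and 92 had neither. Exons with neither site annotated had a median +/+ PSI of 0.13 (70 tested), while exons with both sites annotated had 0.54 (603 tested). The median upstream and downstream introns of all 801 events were 1499 and 1856 nucleotides.

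The comparison of the genotypes called 37 of the 718 tested short cassette exon events (5.15%), with 6.32% of all 18038 tested events of any type called by the same rule. A call needed a Benjamini-Hochberg adjusted p under 0.05 in the quasi-likelihood test of edgeR and an absolute PSI difference over 0.10. Inclusion was higher in K700E/+ cells for 20 events (2.79%, beside 2.19% of all events) and lower for 17 (2.37%, beside 4.13%). The genotypes did not overlap in 202 of the 718 events (28.1%), beside 25.9% of all events. Cassette exons over 60 nucleotides were called in 200 of 3969 events (5.04%), 77 higher (1.94%) and 123 lower (3.10%). None of the differences between these shares was tested.

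The called rises were smaller than the called falls, with no test of that difference. The median PSI difference of the 20 rises was 0.14, from 0.10 to 0.28, and 2 exceeded 0.20. That of the 17 falls was -0.21, with sizes from 0.11 to 0.34, and 9 exceeded 0.20. The 37 calls covered 36 exons in 35 genes, with 23 events frame-keeping and 14 frame-shifting, and the genotypes did not overlap in 35. The 95% interval of the PSI difference, computed over the libraries of each exon alone, included 0 for 9 of the 37. Across all 718 events the median difference was 0.00, and 417 (58.1%) differed by less than 0.05. DESeq2 on the same reads called 6 rises and 15 falls, and limma on the logit PSI called 4 and 11. Over all event types the 1140 calls of the main test became 616 with DESeq2 and 563 with limma, of the same 18038 events. Of the 37 calls 13 were also made by both of these tests and 15 by neither, of which 13 were rises. Without +/+ replicate 3 the rises numbered 9, without K700E/+ replicate 2 they numbered 11, and without K700E/+ replicate 1 or +/+ replicate 1 they numbered 13. The falls ranged from 14 to 18 when each library was left out in turn, and the calls over all event types from 876 to 993. Without replicate 1 of both genotypes 12 rises and 16 falls were called, beside 836 calls over all event types. Without events the table marks as complex, paralog or SNP 6 rises and 9 falls of 331 tested were called, beside 352 of 7062 over all event types.

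**Figure D2:**
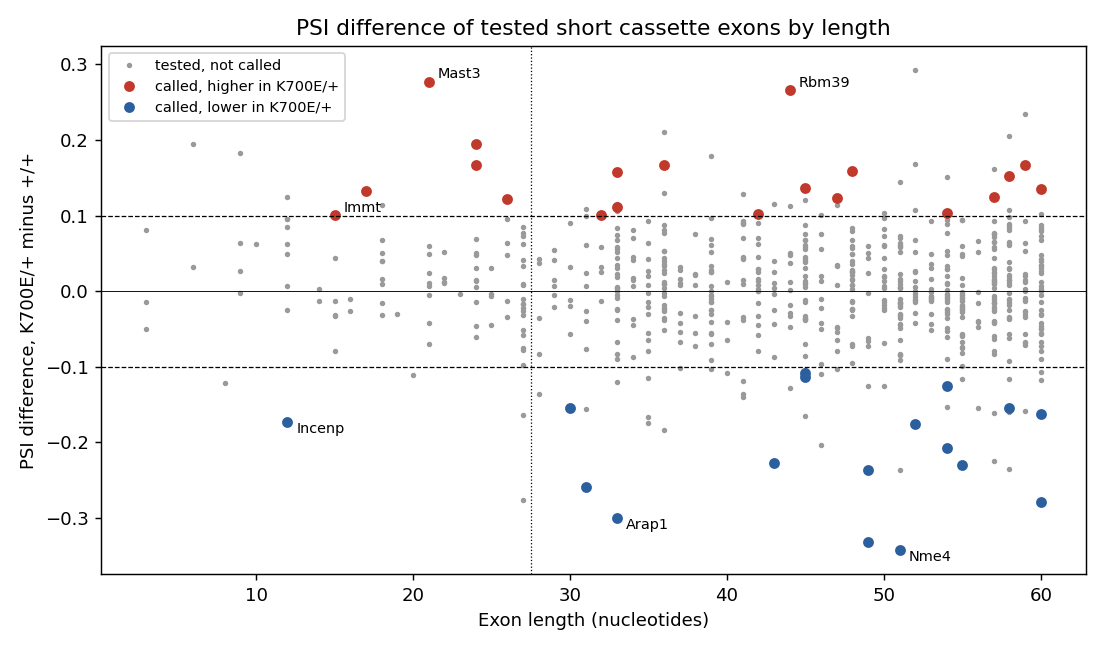
PSI difference (K700E/+ minus +/+) of the 718 tested short cassette exon events against exon length in nucleotides. Red and blue points are called rises and falls, grey points were not called, dashed lines mark differences of 0.10 and -0.10, and the dotted line separates exons up to 27 nucleotides. The 20 called rises and 17 called falls lie among many uncalled events, and Nme4 is the lowest point at -0.34.

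The strongest fall was in Nme4, the mitochondrial nucleoside diphosphate kinase, whose 51 nucleotide coding exon lies at chr17:26311481-26311531 (GRCm39). Its PSI was 0.0620, 0.0777 and 0.0643 in the K700E/+ libraries and 0.394, 0.419 and 0.418 in the +/+ libraries. The groups were far apart, with a difference of -0.34 (95% interval -0.37 to -0.31) and an adjusted p of 1.61e-14 from 3992 reads. Nme4 expression rose at the same time, with a log2 fold change of 0.33 (SE 0.07, adjusted p = 0.0035).

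Further falls were in exons of Arap1, Incenp, Ralgapa1 and Myo18a. The 33 nucleotide exon of Arap1, which encodes a GTPase-activating protein for Arf, (chr7:101054140-101054172) had a PSI of 0.362, 0.386 and 0.360 in K700E/+ and 0.665, 0.676 and 0.664 in +/+. Within each genotype these values were almost equal, and the difference of -0.30 had an adjusted p of 0.00219. Incenp, the inner centromere protein of the chromosomal passenger complex, had a 12 nucleotide exon (chr19:9860556-9860567) with 0.434, 0.424 and 0.481 in K700E/+ against 0.649, 0.589 and 0.618 in +/+ (adjusted p = 0.000492). In the main count this was the only called fall among the 99 tested events of up to 27 nucleotides (1.01%, beside 4.13% of all events). At that length 6 rises were called (6.06%, beside 2.19%), which made 7 calls (7.07%, beside 6.32%). These differences in share were not tested. With reads over both junctions counted for each junction, 4 rises and 4 falls were called at that length. The 31 nucleotide, frame-shifting exon of Ralgapa1, a subunit of the Ral GTPase-activating complex, had 0.497, 0.547 and 0.553 against 0.835, 0.811 and 0.728 (adjusted p = 0.000174). The 45 nucleotide exon of Myo18a, an unconventional myosin (chr11:77745504-77745548), was rare in both genotypes, with 0.0942, 0.0828 and 0.0608 against 0.201, 0.208 and 0.155 (adjusted p = 0.00242). A second short exon of Myo18a, of 12 nucleotides, had a difference of 0.05 (adjusted p = 0.54). With limma the calls of Incenp (adjusted p = 0.0863) and Myo18a (adjusted p = 0.0551) were lost, and the Myo18a difference was under the size threshold without K700E/+ replicate 3 or +/+ replicate 2.

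The next 3 falls were in exons of 5′ untranslated regions. Ift46 encodes a subunit of the intraflagellar transport complex, and its 49 nucleotide exon had a PSI of 0.131, 0.0161 and 0.0817 in K700E/+ and 0.312, 0.434 and 0.475 in +/+. The difference of -0.33 rested on 182 reads (adjusted p = 0.00069). The 54 nucleotide exon shared by Zc3h11a and Zbed6 had 0.620, 0.620 and 0.670 against 0.821, 0.795 and 0.916 (adjusted p = 0.002). The 52 nucleotide exon shared by Armcx5 and Gprasp1 had 0.693, 0.579 and 0.656 against 0.845, 0.811 and 0.799 (adjusted p = 0.0352). These 2 events list 2 genes each, and reads could not be assigned to one of them. With limma none of the 3 calls held (adjusted p = 0.0624 for Ift46, 0.0899 for Zc3h11a and 0.0698 for Armcx5), and that of Armcx5 was also lost with DESeq2 (adjusted p = 0.2) and without any library other than K700E/+ replicate 1.

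A further set of falls was in exons that the annotation lacks in full or in part and that had PSI values near 0 in K700E/+ cells. The 55 nucleotide exon of Zcchc10, with 1 annotated exon site, had a PSI of 0.0337, 0.0293 and 0.0163 in K700E/+ and 0.257, 0.258 and 0.251 in +/+ (adjusted p = 3.01e-09). Slc39a13, the zinc transporter ZIP13, had an unannotated 43 nucleotide exon with 0, 0.0156 and 0.0528 against 0.206, 0.178 and 0.366 (adjusted p = 0.00156). That of Kat14, a subunit of the ATAC histone acetyltransferase complex, was 58 nucleotides long and had 0.0234, 0.0344 and 0.0122 against 0.104, 0.286 and 0.144 (adjusted p = 0.000815). In all 3 the groups did not overlap, but the 95% intervals of the differences included 0 for Slc39a13 (-0.46 to 0.005) and Kat14 (-0.39 to 0.08). In Smg9, which belongs to the SMG1 kinase complex of nonsense-mediated decay, an unannotated 45 nucleotide exon had 0.0166, 0.0135 and 0.0175 against 0.136, 0.117 and 0.134 (adjusted p = 4.45e-07). Smg9 expression was higher in K700E/+, with a log2 fold change of 0.62 (SE 0.06). Of the 70 tested events with neither exon site annotated, 8 were called (11.4%), 4 in each direction. Of the 603 with both annotated 27 were called (4.48%), beside 5.15% of tested short events and 6.32% of all tested events. These differences in share were not tested.

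The 60 nucleotide exon of Tor1aip2, which encodes a partner of torsinA in the endoplasmic reticulum membrane, was called in opposite directions in 2 events that differ only in the next acceptor site. With an unannotated acceptor 15 nucleotides upstream of the annotated one, the PSI was 0.750, 0.678 and 0.697 in K700E/+ and 1, 1 and 0.960 in +/+ (adjusted p = 8.6e-06). Both paths of that event had more reads in K700E/+, with 626 inclusion and 149 skipping reads against 174 and 1. With the annotated acceptor the PSI was 0.663, 0.661 and 0.545 in K700E/+ and 0.469, 0.557 and 0.437 in +/+, where the groups overlapped (adjusted p = 0.0249). The interval of that rise included 0 (-0.01 to 0.28), and the call was lost with DESeq2 (adjusted p = 0.302), with limma (adjusted p = 0.252) and without K700E/+ replicate 1 or 2 or +/+ replicate 1 or 3. The other call with overlapping genotypes was a 60 nucleotide exon of Inf2, a formin, with 0.632, 0.926 and 0.816 against 0.971, 0.969 and 0.922 (adjusted p = 0.0385). Its interval also included 0 (-0.52 to 0.19), and the call was lost with DESeq2 (adjusted p = 0.168), with limma (adjusted p = 0.144) and without K700E/+ replicate 1 or 3 or +/+ replicate 1 or 2.

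**Figure D3:**
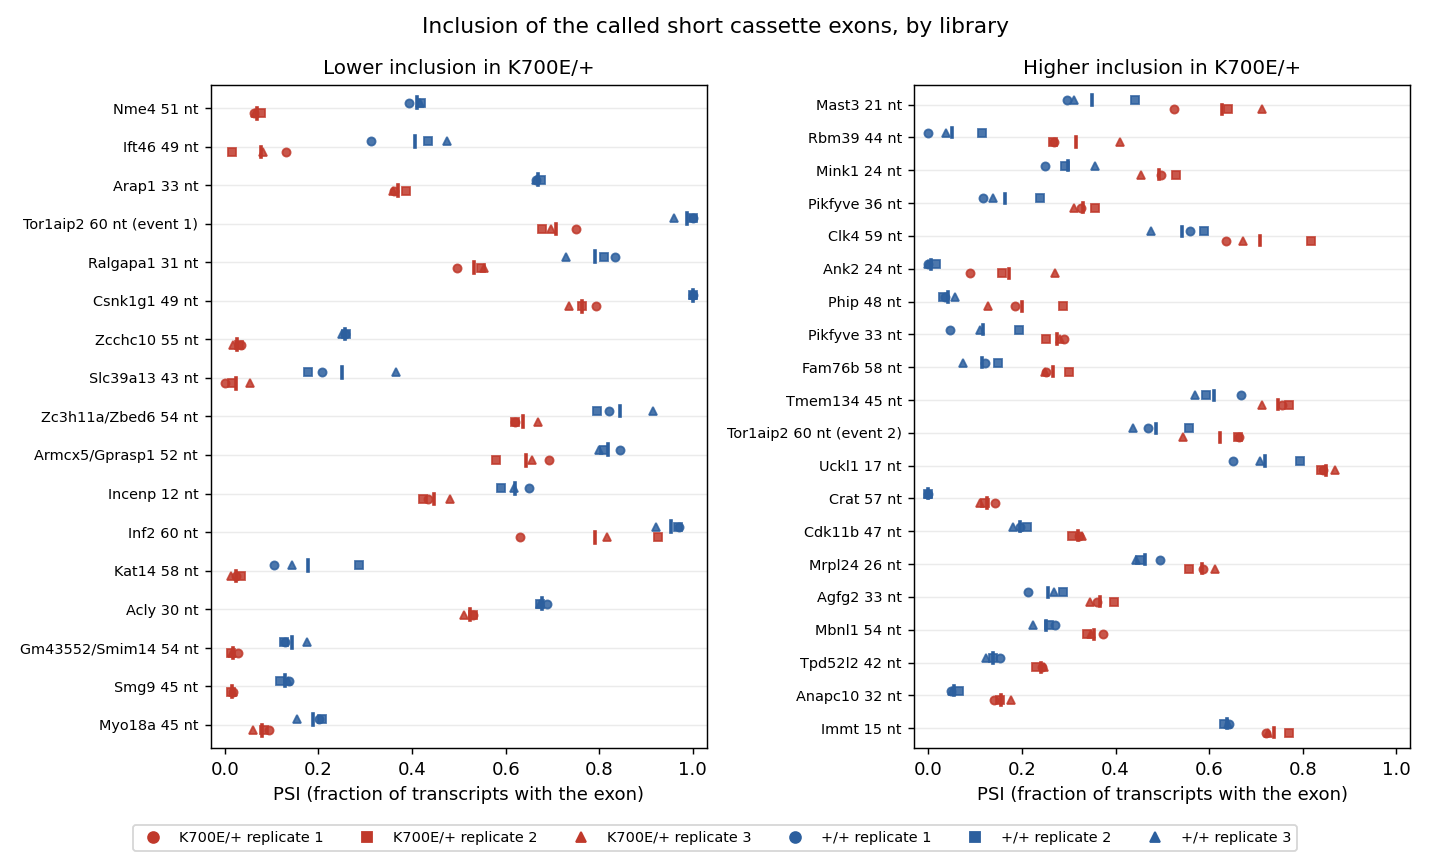
PSI of the 37 called short cassette exon events in each library, falls on the left and rises on the right, sorted by the size of the difference. Red is K700E/+ and blue +/+, symbols mark replicates and short bars the means of 3 libraries. Nme4 sits between 0.0620 and 0.0777 in K700E/+ and between 0.394 and 0.419 in +/+, and Crat is at 0 in all +/+ libraries. The genotypes overlap for Inf2 and for the second Tor1aip2 event.

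Among the rises, 6 were microexons, in genes of 2 protein kinases, a membrane skeleton protein, a nucleoside kinase homologue and 2 mitochondrial proteins. Mast3, a microtubule-associated serine/threonine kinase, had the largest one, for a 21 nucleotide exon (chr8:71242327-71242347) with a PSI of 0.526, 0.641 and 0.713 in K700E/+ and 0.295, 0.442 and 0.312 in +/+. The groups did not overlap, and the difference of 0.28 had an adjusted p of 0.0392. Mink1, a kinase of the germinal centre kinase family, had a 24 nucleotide exon (chr11:70500234-70500257) with 0.497, 0.530 and 0.454 against 0.249, 0.293 and 0.356 (adjusted p = 0.0361). Ank2 encodes ankyrin B, an adaptor between membrane proteins and the spectrin skeleton. Its 24 nucleotide exon (chr3:126845875-126845898) had 0.0892, 0.156 and 0.270 in K700E/+ and 0, 0.0168 and 0 in +/+, from 27 and 1 inclusion reads (adjusted p = 0.00195). The interval of the Ank2 difference included 0 (-0.06 to 0.39). The calls of Mast3 and Mink1 were lost with DESeq2 (adjusted p = 0.211 and 0.198) and limma (adjusted p = 0.0887 and 0.0866). That of Mast3 was lost without K700E/+ replicate 2 or 3 or +/+ replicate 1 or 3, and that of Mink1 without any library other than +/+ replicate 3.

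The other microexon rises were less than 0.14. Uckl1, a uridine-cytidine kinase homologue, had a 17 nucleotide exon (chr2:181214263-181214279) with a PSI of 0.842, 0.838 and 0.869 in K700E/+ and 0.651, 0.794 and 0.710 in +/+ (adjusted p = 0.0459). Mrpl24, a protein of the mitochondrial ribosome, had a 26 nucleotide exon in its 5′ untranslated region with 0.586, 0.556 and 0.613 against 0.495, 0.452 and 0.443 (adjusted p = 0.0214). Immt, the core protein of the complex that shapes mitochondrial cristae, had the most reads of all calls (4308), and its 15 nucleotide exon (chr6:71843710-71843724) had 0.722, 0.770 and 0.726 against 0.643, 0.631 and 0.641 (adjusted p = 0.0119). Its difference of 0.10 was just over the threshold. DESeq2 and limma each called 1 rise among exons of up to 27 nucleotides and none of these 3 (adjusted p from 0.153 to 0.24 and from 0.141 to 0.188). The interval of the Uckl1 difference included 0 (-0.04 to 0.30). Its call was lost without any library other than +/+ replicate 2, that of Mrpl24 without K700E/+ replicate 1 or 3 or +/+ replicate 2 or 3, and that of Immt without replicate 2 of either genotype.

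Over all 99 tested microexon events the PSI difference was positive in 57 and negative in 42, with a median of 0.01. Their mean PSI was 0.461, 0.456 and 0.450 in the K700E/+ libraries and 0.435, 0.437 and 0.447 in the +/+ libraries. These values did not overlap, although the gap between the nearest libraries was small beside the range within a genotype. The median PSI of the same events did overlap, with 0.384, 0.341 and 0.395 in K700E/+ and 0.317, 0.307 and 0.358 in +/+. In the 619 longer events 321 differences were positive and 298 negative. Cassette exons over 60 nucleotides had a mean PSI of 0.628 to 0.641 in K700E/+ and 0.638 to 0.654 in +/+.

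Further rises were in exons of Rbm39, Clk4 and Mbnl1. Rbm39, a splicing factor, had an unannotated 44 nucleotide exon with a PSI of 0.269, 0.267 and 0.410 in K700E/+ and 0, 0.114 and 0.0366 in +/+, from 136 reads in all (adjusted p = 0.016). Clk4, a kinase that phosphorylates serine/arginine-rich splicing factors, had a 59 nucleotide exon with 0.635, 0.817 and 0.672 against 0.559, 0.590 and 0.475 (adjusted p = 0.0361). Mbnl1 encodes a splicing regulator whose 54 nucleotide exon (chr3:60522104-60522157) contributes to its nuclear localisation. Its PSI was 0.373, 0.340 and 0.348 in K700E/+ and 0.270, 0.257 and 0.224 in +/+, a difference of 0.10 (95% interval 0.05 to 0.15, adjusted p = 0.00885). All 3 calls were lost with DESeq2 (adjusted p = 0.111 for Rbm39, 0.286 for Clk4 and 0.125 for Mbnl1) and with limma (adjusted p = 0.0614, 0.234 and 0.178), and the interval of the Clk4 difference included 0 (-0.03 to 0.36). That of Rbm39 was lost without K700E/+ replicate 3 or +/+ replicate 1 or 3, that of Clk4 also without K700E/+ replicate 2, and that of Mbnl1 without K700E/+ replicate 1 or +/+ replicate 3.

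Pikfyve, the lipid kinase that makes phosphatidylinositol 3,5-bisphosphate on endosomes, accounted for 2 of the rises with 2 versions of 1 exon. The versions end at the same donor and start 3 nucleotides apart, at chr1:65231693-65231725 and chr1:65231690-65231725, and they share the skipping path. The 33 nucleotide version had a PSI of 0.289, 0.252 and 0.280 in K700E/+ and 0.0459, 0.193 and 0.109 in +/+ (adjusted p = 0.0393). The 36 nucleotide version had 0.325, 0.357 and 0.312 against 0.117, 0.238 and 0.139 (adjusted p = 0.0319). Both had higher values in K700E/+, and since they share reads they do not count as independent calls. Both were lost with DESeq2 (adjusted p = 0.191 and 0.182), with limma (adjusted p = 0.166 and 0.109) and without any library other than +/+ replicate 2, and the interval of the shorter version included 0 (-0.01 to 0.33).

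In Crat, carnitine acetyltransferase, an unannotated 57 nucleotide exon had 30, 30 and 31 inclusion reads in the K700E/+ libraries and none in +/+. Its PSI there was 0.142, 0.121 and 0.111, and it was 0 in each +/+ library, where 0 of 536 reads allow an inclusion share of reads of up to 0.56% (3 reads, counting error only). The adjusted p was 1.07e-09, and Crat expression was lower in K700E/+ with a log2 fold change of -0.49 (SE 0.12). Anapc10, a subunit of the anaphase-promoting complex, had an unannotated 32 nucleotide exon with 0.140, 0.153 and 0.176 against 0.0490, 0.0651 and 0.0506 (adjusted p = 0.000458). That of Phip was 48 nucleotides long, with 0.185, 0.289 and 0.127 against 0.0358, 0.0306 and 0.0575 (adjusted p = 0.0126). Fam76b had a 58 nucleotide exon with 0.250, 0.299 and 0.248 against 0.122, 0.149 and 0.0730 (adjusted p = 0.00142), and Tmem134 a 45 nucleotide exon with 0.757, 0.770 and 0.713 against 0.668, 0.592 and 0.569 (adjusted p = 0.017). The interval of the Phip difference included 0 (-0.04 to 0.35), and its call was lost with DESeq2 (adjusted p = 0.0976) and without K700E/+ replicate 2 or +/+ replicate 1. That of Fam76b was lost with limma (adjusted p = 0.073), that of Tmem134 with DESeq2 (adjusted p = 0.169), with limma (adjusted p = 0.148) and without K700E/+ replicate 1 or 2 or +/+ replicate 2 or 3. The Anapc10 difference was under the size threshold without K700E/+ replicate 3 or +/+ replicate 1 or 3.

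The 7 calls not yet accounted for, which the rule for named exons did not choose, include the second Tor1aip2 event above. Acly, the ATP-citrate lyase that supplies cytosolic acetyl-CoA, had a 30 nucleotide exon (chr11:100393986-100394015) with 0.530, 0.531 and 0.511 in K700E/+ and 0.687, 0.674 and 0.674 in +/+ (adjusted p = 0.000447). Its expression rose with a log2 fold change of 0.40 (SE 0.06). Csnk1g1 fell by 0.24, with 0 skipping of 71 reads in +/+, which allows a share of up to 4.23%, and the event listed for Gm43552 and Smim14 fell by 0.13. Cdk11b rose by 0.12, Agfg2 by 0.11 and Tpd52l2 by 0.10. The calls of Acly, Cdk11b and Tpd52l2 were lost with limma (adjusted p = 0.0784, 0.085 and 0.0832), and that of Agfg2 with limma (adjusted p = 0.195) and DESeq2 (adjusted p = 0.228). Tpd52l2 was also lost without replicate 3 of either genotype, and Agfg2 without K700E/+ replicate 1 or 2 or +/+ replicate 1.

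The uncalled exons with the most reads and intermediate inclusion differed by less than 0.10. The uncalled exon with most reads, 57828, was a 37 nucleotide exon of Gas5, a non-coding host of small nucleolar RNAs, with a PSI of 0.846, 0.858 and 0.862 in K700E/+ and 0.799, 0.827 and 0.844 in +/+. Its difference was 0.03 (95% interval -0.02 to 0.08, adjusted p = 0.186). A 41 nucleotide exon of Gas5 had 0.399, 0.379 and 0.423 against 0.283, 0.328 and 0.321, and its difference of 0.09 passed the adjusted p (0.0127) but not the size threshold. The 36 nucleotide exon of Hnrnpa2b1, an RNA-binding protein, had 0.228, 0.210 and 0.230 against 0.232, 0.192 and 0.233, a difference of 0.00 (95% interval -0.04 to 0.05, adjusted p = 0.924). The 57 nucleotide exon of Erh differed by -0.02 (95% interval -0.04 to 0.01), and that of Hnrnpd, which separates the protein isoforms of this AU-rich element binding factor, by 0.07 (95% interval -0.01 to 0.15, adjusted p = 0.0606). With the replicate block the adjusted p was 0.00206 for Hnrnpd and 0.0238 for the 37 nucleotide exon of Gas5, and both differences stayed under the size threshold. In all, 64 short events passed the adjusted p, of which 27 differed by 0.10 or less, and 66 differed by more without passing it.

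At the edge of the length limit, of the 41 events of 60 nucleotides 40 were tested and 3 called, and of the 40 events of 61 nucleotides, outside the limit, 37 were tested and 1 called.

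Proteins that regulate short exons were expressed for the most part. Of 39 listed regulators 26 were tested, and 5 rose and 6 fell at an adjusted p under 0.05, beside 21.3% of all tested genes that rose and 23.1% that fell. The neuronal activators Srrm3 and Srrm4 had 0 reads in all libraries, as had Rbfox1, Rbfox3 and Nova2. Of 6 neuronal markers, which include Srrm3, Srrm4 and Rbfox3, Map2 and Snap25 were also at 0. The other marker, Tubb3, was at 3.23 to 8.02 CPM in K700E/+ and 6.55 to 10.6 CPM in +/+. Tial1, which binds U-rich sequence downstream of donor sites, rose with a log2 fold change of 0.60 (SE 0.05), and its relative Tia1 fell by 0.40 (SE 0.07). Celf2, from 0.122 to 0.197 CPM in +/+, was at 1.64 to 3.13 CPM in K700E/+. The regulator and microexon repressor Ptbp1 had a log2 fold change of 0.14 (adjusted p = 0.127). Its relative Ptbp3 was lower in K700E/+, with a log2 fold change of -0.36 (SE 0.07, adjusted p = 0.003). Nova1 was also lower, with -0.42 (SE 0.09, adjusted p = 0.0036).

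These regulators hold 11 short cassette exons themselves, in 9 genes, all tested. Only that of Mbnl1 was called (9.09%, beside 6.32% of all events), and 10 of the 11 PSI differences were positive, with a median of 0.04. Among all tested short events 57 of 99 microexon differences and 321 of 619 longer ones were positive, with a median of 0.004 over all. Some of the 11 events share a gene, and the signs were not tested. Mbnl2, a relative of Mbnl1, had 0.572, 0.612 and 0.573 against 0.472, 0.480 and 0.489 for its own 54 nucleotide exon, a difference of 0.11 from 438 reads with an adjusted p of 0.352. The 36 nucleotide exon of Mbnl2 differed by 0.13 (adjusted p = 0.0983). The 34 nucleotide exons of Ptbp2 and Ptbp3, whose skipping shifts the frame, differed by 0.08 (adjusted p = 0.618) and 0.04 (adjusted p = 0.442).

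Of the 18 factors that recognise the branch point and the acceptor, 7 rose and 1 fell (38.9% and 5.56%, beside 21.3% and 23.1% of all tested genes). U2af2, the large subunit of the factor that binds the polypyrimidine tract, rose by a log2 fold change of 0.34 (SE 0.06), Sf3b3 by 0.41 (SE 0.09), and Puf60 fell by 0.24 (SE 0.06). Short exons of this list, in Ddx42 and Sf3b3, differed by -0.03 and -0.02 and were not called.

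Genes of the erythrocyte and of iron handling held 7 tested short exon events, none called, where 6.32% of all tested events were. That of Tmem14c, a mitochondrial porphyrin transporter, had 59 nucleotides and a PSI difference of -0.03 (95% interval -0.049 to -0.0032, adjusted p = 0.0924). A 33 nucleotide exon in the cytoplasmic tail of Cd47 had a difference of 0.08 (adjusted p = 0.109), and the 37 nucleotide exon of Add1, the membrane skeleton protein adducin, one of -0.05 (adjusted p = 0.295). In the list itself 24 of 56 tested genes rose (42.9%) and 12 fell (21.4%), beside 21.3% and 23.1% of all tested genes. DNA replication and repair genes held 3 events, none called, while 33 of 87 tested genes rose (37.9%) and 15 fell (17.2%). Cytoskeleton and trafficking genes held 28 events, of which 27 were tested and 2 called (Ank2 and Myo18a), with 17 of 75 tested genes higher (22.7%) and 34 lower (45.3%). Genes known in mammals for short alternative exons held 14 events with 1 call (Myo18a), and among these genes 11 of 30 tested rose (36.7%) and 8 fell (26.7%). None of these shares was tested against its background. Other exons of that list, such as the 15 nucleotide exon of Abi1 with a difference of 0.04 and the 3 nucleotide exon of Clasp2 with -0.05, were not called.

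Few hosts of called exons were differentially expressed by the thresholds of an adjusted p under 0.05 and a log2 fold change over 1 in size. Of 646 tested host genes 49 (7.59%) passed both, beside 10.3% of all 12547 tested genes. They were 18 higher and 31 lower. Among the 34 tested hosts of called exons 1 passed both thresholds, Inf2, which fell from 58.6, 65.6 and 62.97 CPM in +/+ to 25.6, 29.3 and 37.2 CPM in K700E/+ (log2 fold change -1.02, SE 0.12). At the adjusted p alone 6 of these 34 hosts were higher and 8 lower, beside 21.3% and 23.1% of all tested genes. Arap1 fell by a log2 fold change of 0.76 (SE 0.08), from 37.5, 44.7 and 43.4 to 25.3, 24.2 and 24.4 CPM. Mast3, whose exon rose, fell by 0.51 (SE 0.06).

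**Figure D4:**
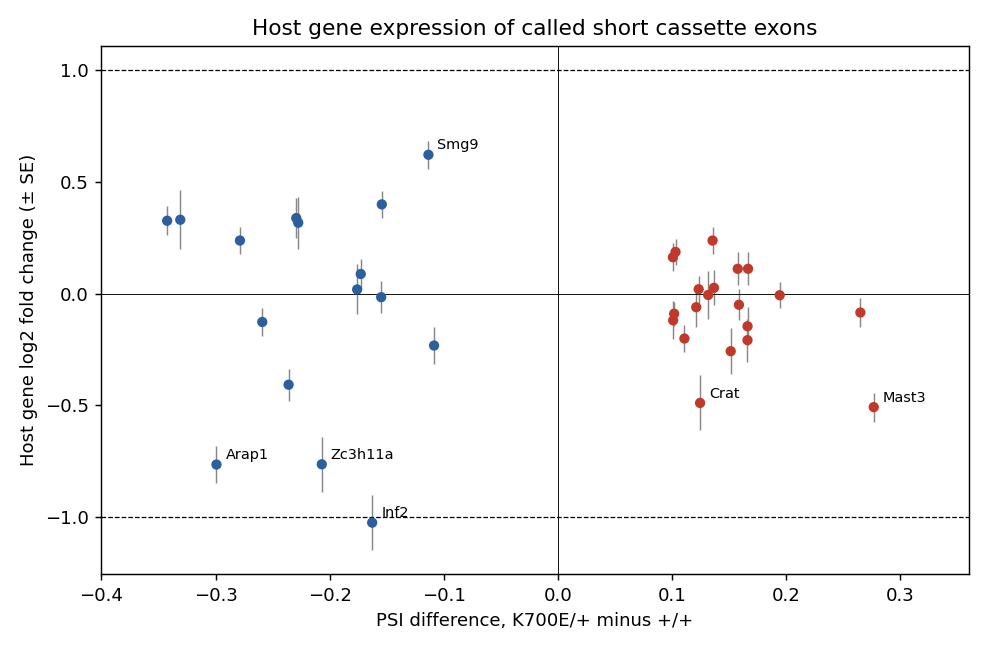
Host gene log2 fold change (K700E/+ over +/+, ± SE) against PSI difference for called short cassette exon events with a tested host gene. Red marks rises and blue falls in inclusion, and dashed lines mark log2 fold changes of 1 and -1. Inf2 is the host beyond the lower line at -1.02, and Smg9 is the highest at 0.62.

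The introns and the GC content of the called exons were set beside those of all tested events. The median upstream intron of the called exons was 584 nucleotides (quartiles 390 and 2749). For all tested events it was 1502 (quartiles 534 and 4541). The median downstream introns were 1988 and 1852 nucleotides. Median GC content was 50% in the 25 matched called exons and 48.3% in the 539 matched tested exons. These medians were not tested. Sequence around the acceptor and the branch point lies in introns and was not analysed here.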

How the data were processed

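G1E-ER4 cells of both genotypes were compared after 24 h of estradiol, 3 libraries each; the libraries without estradiol were not analysed here. Per the labels and the study's methods, the authors aligned reads with STAR 2.7.9 on GRCm39, deposited a raw count per gene, and assembled splicing events with KisSplice, giving packed read counts of 2 read files per library and a PSI per library as a fraction. DESeq2 1.30.1 is named for their comparisons, whose columns of fold changes and p-values were not used. Members and gene lists were chosen with earlier results of these data known.

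Inclusion reads were those over either junction of the exon, each read once, and PSI was recomputed from them. The deposited PSI fraction was lower by a median of 0.046 (4534 values, 9.88% within 0.01), and its formula is not given in the sources used here. Events reaching 10 reads in each library were fitted in edgeR 4.0.16 (R 4.3.3) by quasi-likelihood with terms for library, path and path by genotype, across all event types. Genes were filtered with filterByExpr and normalized by TMM. Intervals of PSI differences are 95% Welch intervals over libraries. Alternatives were DESeq2 1.42.0, limma 3.58.1, other read minimums, other read sums, single read files, the replicate block and left-out libraries. Scripts were tested on simulated data with a set spread. Shifts of 0.2 in the longer path's share of reads were called in 47 of 98 events. Shifts of 0.4 were called in 97 of 99, and 8 of 17554 events without a shift were called. Every event was given the same spread and all shifts were upward, so these rates do not carry over to the real libraries. Exons named were the largest called rises and falls without overlap, called microexons, the lowest adjusted p, unannotated calls, calls in listed genes and the uncalled exons with most reads.

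Deviations of same-numbered libraries from their genotype means correlated at 0.637, 0.491 and 0.478 over 8771 genes, and the replicate block pairs the libraries by number. Between replicates 2 and 3 of different genotypes the correlations were lower but also positive (0.255 and 0.212). Replicate 1 stood apart in both genotypes, which contributes to these values. The labels do not say what a number marks.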

Additional observations from a re-analysis of the deposited data

How the results depend on the processing

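In place of 20 rises, DESeq2 called 6, limma on the logit PSI 4 and the first read file alone 11, and 6 were called when events marked complex, paralog or SNP were left out. In place of 17 falls, limma called 11, and 9 were called without the marked events. Calls over all event types were also fewer than the 1140 of the main test. They numbered 616 with DESeq2, 563 with limma, 763 with the first read file and 352 without the marked events. A PSI threshold of 0.20 gave 2 rises and 9 falls, and exons of 27 nucleotides or less alone gave 6 and 1. Counting reads over both junctions for each junction gave 21 rises and 22 falls, with 4 and 4 among microexons. The mean of both junctions, without division by length, gave 21 and 23, with 6 and 3 among microexons. Leaving out each library in turn gave 9 to 19 rises, 14 to 18 falls and 44 to 51 differentially expressed host genes. Leaving out replicate 1 of both genotypes, an alternative chosen after seeing the data because these libraries stood apart, gave 12 rises and 16 falls. The deposited PSI, also added after seeing the data, gave 15 of each, with 26 of the 37 calls among them. Among the named exons tested there, the calls of Mbnl1, Crat, Smg9, Myo18a and Anapc10 were lost. Without a fold threshold 333 of 646 tested host genes passed in place of 49, with 148 higher and 185 lower. Of all 12547 tested genes 2670 (21.3%) were then higher and 2899 (23.1%) lower. The cause of these shifts was not tested. With the replicate block, which uses the pairing, 23 rises and 21 falls were called, with all 37 calls among them. The PSI difference of the Hnrnpa2b1 exon, 0.00 in all libraries, ran from -0.00929 without +/+ replicate 2 to 0.011 without +/+ replicate 3. The calls of Arap1, Nme4, Ralgapa1, Slc39a13, Zcchc10 and the Tor1aip2 event with the unannotated acceptor were kept in each alternative that tested them, while those of Pikfyve, Mink1, Armcx5 with Gprasp1, and Uckl1 were lost in 10 or more. The median called event had 858 reads over the 6 libraries and the shallowest 136, which limits the precision of the latter's PSI.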
